A study of Rattus norvegicus with 16 samples.

Results

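Hepatic stellate cells were followed through 10 of their marker genes in rat liver. The genes were Lrat, Reln, Des, Pdgfrb, Dcn, Ecm1, Colec11, Acta2, Hgf and Ngfr, which include genes of the resting cell and genes of the activated cell, without collagens. They were found in the deposited table by gene symbol and made up 10 of its 17544 genes. All 10 were listed, and 9 of them were among the 12732 genes with enough counts to be tested. Ngfr was the exception. The 10 rows had no duplicates, and each gene number matched a protein-coding gene of the same symbol in RefSeq.

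The livers came from male SD rats injected intraperitoneally over 28 days. Xylazine is a sedative of veterinary use that acts on alpha-2 adrenergic receptors, and the stated subject of the study was liver injury by this drug. The groups were normal saline, the control, and xylazine at 10, 20 and 40 mg/kg, with 4 livers sequenced in each of the 4 groups, and 16 libraries of messenger RNA in all. The rats were of 1 sex and 1 stock. The labels do not say how the sequenced livers were chosen from the larger number of rats treated, and they give no batch. Each library summed to an estimated number of reads (expected counts) between 16059900 and 16956900.

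Stellate cells lie between the hepatocytes and the sinusoidal endothelium and hold most of the vitamin A of the body as retinyl esters. In injured liver they lose these stores and become contractile, matrix-producing myofibroblasts, a change driven by platelet-derived growth factor and transforming growth factor beta. Lrat makes the retinyl esters, and Reln, Hgf, Ecm1 and Colec11 encode secreted proteins that resting stellate cells produce. Pdgfrb is the receptor for platelet-derived growth factor B, and Acta2, smooth muscle actin, is the usual mark of the activated cell. Acta2, Des and Dcn are also made by other cells of the vessel wall and of the portal tract. For no member, Pdgfrb included, was the cell of origin identified in these whole livers. In whole tissue, fewer cells of a type and less RNA per cell cannot be told apart.

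Promoter sequences in RefSeq (build GRCr8) were at hand for 7 of the 10 members, namely Lrat, Reln, Des, Ecm1, Colec11, Acta2 and Hgf. Pdgfrb, Dcn and Ngfr had no entry. The 250 bases before the gene start are printed for Ecm1 and Colec11, which varied together most closely of all member pairs, and for Acta2, which varied against both. Lower case is the plain sequence, read 5′ to 3′ on the strand of the gene. Capitals mark the sequence CCAAT, a CArG-like box or the sequence TATAAA, searched on both strands, and no matches overlapped in these windows. The CArG-like box starts with CC, ends with GG and has 6 bases between, at most 1 of them G or C. It is the kind of element that serum response factor binds in smooth muscle genes.
Ecm1, chr2:185981607-185981856, minus strand: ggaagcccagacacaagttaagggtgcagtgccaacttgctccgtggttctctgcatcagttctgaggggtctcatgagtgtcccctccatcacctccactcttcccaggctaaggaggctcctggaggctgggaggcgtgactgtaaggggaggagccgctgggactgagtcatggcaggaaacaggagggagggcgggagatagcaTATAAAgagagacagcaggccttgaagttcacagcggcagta
Colec11, chr6:50984846-50985095, minus strand: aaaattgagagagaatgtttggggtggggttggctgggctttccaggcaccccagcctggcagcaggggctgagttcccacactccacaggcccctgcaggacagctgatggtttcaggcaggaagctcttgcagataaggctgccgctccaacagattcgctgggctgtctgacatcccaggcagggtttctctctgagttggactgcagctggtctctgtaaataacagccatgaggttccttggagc
Acta2, chr1:241172504-241172753, minus strand: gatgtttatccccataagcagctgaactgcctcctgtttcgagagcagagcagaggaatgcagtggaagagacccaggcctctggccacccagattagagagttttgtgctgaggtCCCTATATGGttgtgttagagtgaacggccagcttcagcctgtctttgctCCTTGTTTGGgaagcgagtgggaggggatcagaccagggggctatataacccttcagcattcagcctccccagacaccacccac
The Acta2 window held 2 CArG-like boxes, 134 to 125 and 84 to 75 bases before the start. The Ecm1 window held TATAAA 42 to 37 bases before the start, and the Colec11 window held none of these letters. Of the others, Lrat had a CArG-like box and CCAAT, and Hgf had CCAAT on the opposite strand. Among 33469 rat promoter windows of this length, 8.08% held at least 1 CArG-like box, 12.9% held TATAAA and 34% held CCAAT, so a single match is not rare. The share with 2 CArG-like boxes, as in the Acta2 window, was not counted. None of the matches shows that a factor binds.

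On a scale that allows for gene length (TPM, a share of all transcripts scaled to a common total), Ecm1 was the most abundant member, with a median level of 70.4 TPM over the 16 libraries. Colec11 followed with a median of 48.5 TPM, and both stood above every later gene of the order in all 16 libraries. Another 5 members lay close together in level, with median levels of 5.81 TPM for Dcn, 5.56 TPM for Pdgfrb, 5.17 TPM for Hgf, 4.95 TPM for Lrat and 3.24 TPM for Acta2. Neighbours among these 5 changed places from library to library. Dcn was above Pdgfrb in 10 of 16 libraries, and Pdgfrb was above Hgf in 11, Hgf above Lrat in 8 and Lrat above Acta2 in 10. Reln, with a median level of 2.63 TPM, was below Acta2 in 10 of 16 libraries and above Des in 15. Des had a median level of 1.31 TPM, and Ngfr, the low-affinity nerve growth factor receptor, was last with 0.07 TPM. Defining genes of the resting cell were present in every library, with 224 to 664 expected counts for Lrat and 1042 to 2209 for Ecm1. Acta2 had 26 to 133 expected counts and Des 14 to 56. These counts are not scaled for gene length and do not compare levels between genes.

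Of the 9 members tested, Pdgfrb rose with dose and no other member passed. In counts per scaled library (CPM, with TMM factors), Pdgfrb had 18.8, 21.4, 20.5 and 20.6 CPM in the saline livers and 25.4, 21.6, 18.6 and 21.7 CPM after 10 mg/kg. It had 24.9, 26.2, 22.6 and 24.3 CPM after 20 mg/kg and 32.8, 22.0, 30.2 and 24.4 CPM after 40 mg/kg. All livers at 20 and at 40 mg/kg were above all saline livers, while those at 10 mg/kg overlapped with saline. Group means were 20.3 ± 1.12 CPM for saline, 21.8 ± 2.78 at 10 mg/kg, 24.5 ± 1.52 at 20 mg/kg and 27.4 ± 4.98 at 40 mg/kg (SD, n = 4 each). The linear trend, which is the fitted log2 change between 0 and 40 mg/kg, was 0.44 (SE 0.105), with an adjusted p of 0.0351 by edgeR's quasi-likelihood test with Benjamini-Hochberg adjustment over all 12732 genes. Pdgfrb was thus the 1 of 9 tested members that passed for the trend, against a background of 2.91% of all genes tested, of which 1.28% were higher with dose and 1.63% lower.

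The difference of 40 mg/kg from saline taken alone did not pass for Pdgfrb. It was 0.43 on the log2 scale (SE 0.116), or 1.35-fold, higher in 4 of 4 livers, with an adjusted p of 0.0769. DESeq2, which called 523 genes at 40 mg/kg against 141 by the quasi-likelihood test, called the same difference. In DESeq2 the log2 change was 0.43 with an adjusted p of 0.0289. The difference also passed in the quasi-likelihood test without the second liver at 40 mg/kg, at 0.52 with an adjusted p of 0.0470. The call for the trend was lost without saline liver 1, 2 or 4, or without liver 1 or 3 at 40 mg/kg, where the adjusted p lay between 0.0546 and 0.106. It was also lost when the trend was fitted to the 3 xylazine doses alone, with a log2 change of 0.42 and an adjusted p of 0.291. In each of these settings Pdgfrb stayed higher with dose.

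**Figure D1:**
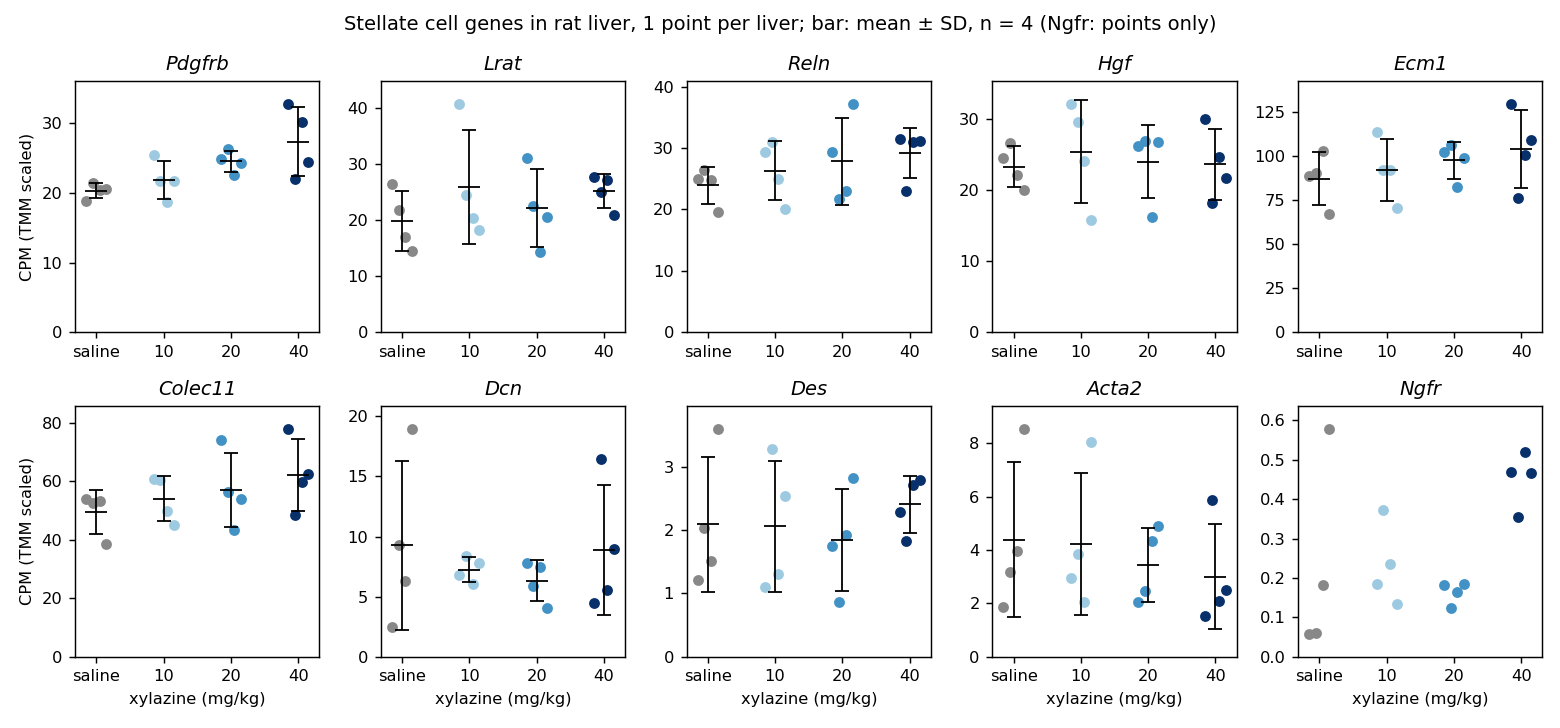
CPM with TMM scaling (vertical axes, each from 0) of the 10 stellate cell genes in each of the 16 livers, by xylazine dose in mg/kg (horizontal axes). Points are livers and bars are mean ± SD of 4 livers, with points only for Ngfr. The 4 livers at 40 mg/kg lie at 22.0 CPM or above for Pdgfrb and the saline livers at 21.4 CPM or below, while every dose group overlaps with saline for the other 9 genes.

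No member passed at 10, 20 or 40 mg/kg against saline, between 20 and 10 mg/kg, between 40 and 20 mg/kg, or in the test of any dose, by edgeR's quasi-likelihood test. The background was 1.11% of genes called at 40 mg/kg (0.471% higher and 0.636% lower), 0.361% for any dose and 0% in the other 4. An unadjusted p under 0.05 was reached by 1 member at 20 mg/kg and 1 at 40 mg/kg, Pdgfrb in both, by 0 of 9 at 10 mg/kg and by 0 of 9 in both steps between doses. Of all 12732 genes tested, 1162 reached it at 20 mg/kg, 2063 at 40 mg/kg and 509 at 10 mg/kg, so 1 of 9 members was no more than about the background share. DESeq2 called 1 member at 40 mg/kg and 0 in the other 5, and limma on log2 TPM called 0 in all 6. Over all genes at 40 mg/kg DESeq2 called 523, against 141 by the quasi-likelihood test. Pdgfrb was the 1 member whose livers did not overlap with saline at 20 mg/kg, where 2.29% of all genes were higher without overlap and 2.26% lower. It was also the 1 such member at 40 mg/kg, where the shares were 4.45% and 4.85%. At 10 mg/kg there was none, beside shares of 1.09% and 1.12%. The median log2 change of the 9 tested members was 0.10 at 10 mg/kg, 0.15 at 20 mg/kg and 0.25 at 40 mg/kg, beside medians over all genes within 0.01 of 0. At 40 mg/kg 7 of the 9 had a positive change, as had 6370 of the 12732 genes tested.

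Among the genes of the resting cell, Lrat, which esterifies retinol for storage, had 26.5, 21.7, 17.0 and 14.4 CPM in the saline livers and 40.8, 24.6, 20.3 and 18.3 CPM after 10 mg/kg. It had 31.1, 22.5, 14.4 and 20.6 CPM after 20 mg/kg and 27.6, 25.0, 27.2 and 20.9 CPM after 40 mg/kg. These ranges overlap throughout, and the single highest liver was given the lowest dose. For 40 mg/kg against saline the log2 change of Lrat was 0.34 (SE 0.270, adjusted p 0.582), with an approximate interval of 2 SE from -0.20 to 0.88.

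Reln, a large secreted glycoprotein, had 24.9, 26.4, 24.9 and 19.5 CPM in the saline livers, against 29.3, 30.9, 24.9 and 20.1 CPM after 10 mg/kg, 29.4, 21.7, 23.0 and 37.2 CPM after 20 mg/kg and 31.4, 23.1, 30.9 and 31.1 CPM after 40 mg/kg. At the highest dose 3 livers were above the whole saline group and 1 was within it. The log2 change of Reln at 40 mg/kg was 0.28 (SE 0.172, adjusted p 0.440). Hgf, the growth factor for hepatocytes, averaged 23.3 ± 2.87 CPM in saline livers, 25.4 ± 7.21 at 10 mg/kg, 24.0 ± 5.20 at 20 mg/kg and 23.6 ± 5.02 at 40 mg/kg (SD, n = 4 each). Its log2 change at 40 mg/kg was 0.02 (SE 0.213, adjusted p 0.977), and its trend was -0.02, positive instead under total count scaling and in limma on log2 TPM.

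Ecm1, a secreted matrix glycoprotein, had 88.8, 90.4, 103 and 67.0 CPM in the saline livers and 113, 91.9, 92.0 and 70.6 CPM after 10 mg/kg. It had 102, 106, 82.5 and 99.0 CPM after 20 mg/kg and 130, 76.3, 100 and 109 CPM after 40 mg/kg. The groups overlapped, with 1 low liver in each. The log2 change of Ecm1 at 40 mg/kg was 0.25 (SE 0.166, adjusted p 0.483). Colec11, a collectin that starts complement on sugar-bearing surfaces, had 53.9, 52.7, 53.3 and 38.4 CPM in the saline livers and 60.7, 60.4, 50.0 and 45.2 CPM after 10 mg/kg. It had 74.0, 56.4, 43.5 and 54.0 CPM after 20 mg/kg and 78.1, 48.6, 59.7 and 62.4 CPM after 40 mg/kg. At the highest dose 3 of 4 livers exceeded every saline liver, and the log2 change was 0.33 (SE 0.169, adjusted p 0.360). The trend of Colec11 was 0.32 (SE 0.152, adjusted p 0.272), the next after Pdgfrb by p among the members.

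Acta2, Dcn and Des, genes of contractile and matrix-forming cells, gave no call and had the highest spread within groups of the tested members. Acta2 had 1.85, 3.18, 3.98 and 8.56 CPM in the saline livers and 2.95, 3.85, 2.07 and 8.06 CPM after 10 mg/kg. It had 2.05, 2.46, 4.34 and 4.92 CPM after 20 mg/kg and 1.53, 5.90, 2.08 and 2.51 CPM after 40 mg/kg. The highest and the lowest liver differed 5.61-fold, and 1 high liver stood out in the saline, the 10 mg/kg and the 40 mg/kg groups. The log2 change of Acta2 at 40 mg/kg was -0.54 (SE 0.541, adjusted p 0.674), with an approximate interval of 2 SE from -1.62 to 0.54, and the trend was -0.58 (SE 0.486, adjusted p 0.559). Leaving out 1 library at a time moved the value at 40 mg/kg between -1.10 and -0.0044.

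Dcn, the small matrix proteoglycan decorin, had 2.48, 9.29, 6.28 and 19.0 CPM in the saline livers and 6.81, 8.37, 6.03 and 7.80 CPM after 10 mg/kg. It had 7.79, 5.91, 7.47 and 4.06 CPM after 20 mg/kg and 4.46, 16.4, 5.54 and 8.97 CPM after 40 mg/kg. The spread within the saline group exceeded any difference between group means, and the log2 change of -0.06 (SE 0.499, adjusted p 0.973) was positive instead under total count scaling and in limma on log2 TPM. Des, the intermediate filament of muscle and of rat stellate cells, averaged 2.09 ± 1.06 CPM in saline livers, 2.06 ± 1.04 at 10 mg/kg, 1.84 ± 0.805 at 20 mg/kg and 2.41 ± 0.445 at 40 mg/kg (SD, n = 4 each). Its log2 change at 40 mg/kg was 0.21 (SE 0.396, adjusted p 0.848). The coefficient of variation within groups was 61.4% for Acta2, 57.6% for Dcn and 41.6% for Des, against 12.8% for Pdgfrb, 17.6% for Ecm1, 18.5% for Colec11, 18.6% for Reln, 22.0% for Hgf and 29.5% for Lrat.

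Ngfr stayed under the minimum for testing. Its expected counts were 1, 1, 3 and 9 in the saline livers, 3, 6, 4 and 2 at 10 mg/kg, 3, 2, 3 and 3 at 20 mg/kg and 8, 6, 9 and 8 at 40 mg/kg. Every liver at 40 mg/kg had more counts than every liver at 20 mg/kg, and the groups at 40 mg/kg and saline overlapped. The share of all genes without overlap between 20 and 40 mg/kg was not computed. The 4 livers at 40 mg/kg summed to 31 counts and the saline livers to 14, of which 1 liver held 9. With the filter on low counts removed, 17526 genes were tested by edgeR's quasi-likelihood test. The log2 change of Ngfr at 40 mg/kg against saline was 1.05 (SE 0.547) with an adjusted p of 0.450. For 40 against 20 mg/kg it was 1.42 (SE 0.567) with an adjusted p of 0.883. Ngfr was called in neither.

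**Figure D2:**
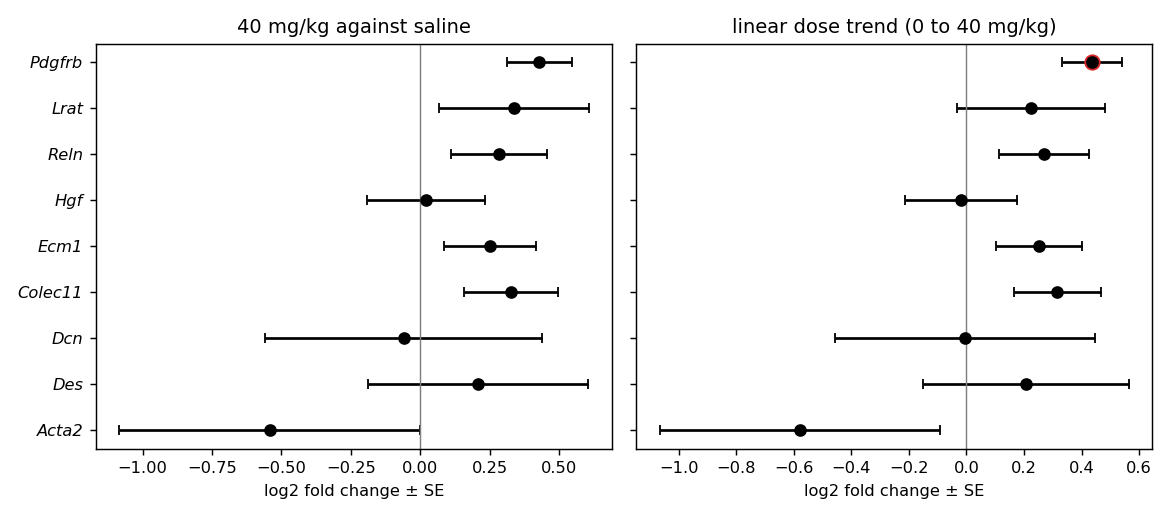
Log2 fold change with its SE (horizontal axes) of the 9 tested stellate cell genes, for 40 mg/kg against saline (left) and for the linear trend from 0 to 40 mg/kg (right). The red ring marks the 1 gene past an adjusted p of 0.05, Pdgfrb for the trend at 0.44. The wide bars of Acta2, Dcn and Des reflect SEs of 0.396 to 0.541 at 40 mg/kg.

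Livers of 1 dose group differed in ways the members shared. After each gene's log2 CPM had been centred within its dose group, all 36 pairs of the 9 tested members were correlated over the 16 livers, with p from 100000 permutations within dose groups and Benjamini-Hochberg adjustment over the 36 pairs. After adjustment 11 pairs passed by Pearson's r, and 5 passed by both r and Spearman's rho. The share of pairs of other genes that would pass was not computed, so the counts are not shown to be particular to the members. The genes fell into a set of 6, Lrat, Reln, Ecm1, Colec11, Hgf and Pdgfrb, and a set of 3, Des, Dcn and Acta2. This division was made after the values were seen and is a description. All 15 pairs within the first set were positive, with r from 0.319 to 0.845 and a median of 0.652. All 3 pairs within the second were positive, with r from 0.351 to 0.677, and 16 of the 18 pairs between the sets were negative, with a median r of -0.431. The genes of a pair share each liver's library and its scaling. Under total count scaling 35 of the 36 pairs had the same sign.

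Ecm1 and Colec11 had the highest correlation, with r = 0.845 (permutation p 0.00047, adjusted 0.0113) and rho = 0.774 (permutation p 0.00107, adjusted 0.0356) over 16 livers. Without the 2 livers farthest from the median of the gene named first, here Ecm1, r was 0.762. Colec11 and Hgf had r = 0.804 (permutation p 0.00094, adjusted 0.0113) and rho = 0.750 (permutation p 0.00461, adjusted 0.0356), with r = 0.803 without the 2 farthest livers. The other 3 pairs that passed by both measures had an adjusted permutation p of 0.0356 for rho. Lrat with Hgf had r = 0.738 (adjusted permutation p 0.0331) and rho = 0.738, with r = 0.616 without the 2 farthest livers. Lrat with Colec11 had r = 0.731 (adjusted permutation p 0.024) and rho = 0.771, with 0.698 without them, and Reln with Hgf had r = 0.718 (adjusted permutation p 0.0331) and rho = 0.768, with 0.570 without them. In each of the 4 groups, the liver lowest in Ecm1 was also the lowest in Colec11.

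Acta2 ran against this set. With Colec11 it had r = -0.752 (permutation p 0.00314, adjusted 0.024) and rho = -0.638 (permutation p 0.0181, adjusted 0.0775). Without the 2 livers farthest from the median of Colec11, r was -0.763. With Ecm1, Acta2 had r = -0.767 (permutation p 0.00558, adjusted 0.0331) and rho = -0.612 (permutation p 0.028, adjusted 0.0775). Without the 2 livers farthest from the median of Ecm1, r was -0.602. The livers farthest in Acta2 were not the ones chosen. These negative relations passed by Pearson's r and not by rho. The plot of Colec11 against Acta2 shows saline liver 4, with 8.56 CPM of Acta2 and 38.4 CPM of Colec11, opposite liver 1 at 40 mg/kg, with 1.53 and 78.1 CPM. Pdgfrb had r = 0.437 with Lrat and 0.574 with Ecm1, and r = -0.293 with Acta2. None of its 8 pairs passed by r or by rho. The lowest adjusted permutation p was 0.081 for r, with Hgf, and 0.0775 for rho, with Hgf and with Lrat.

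**Figure D3:**
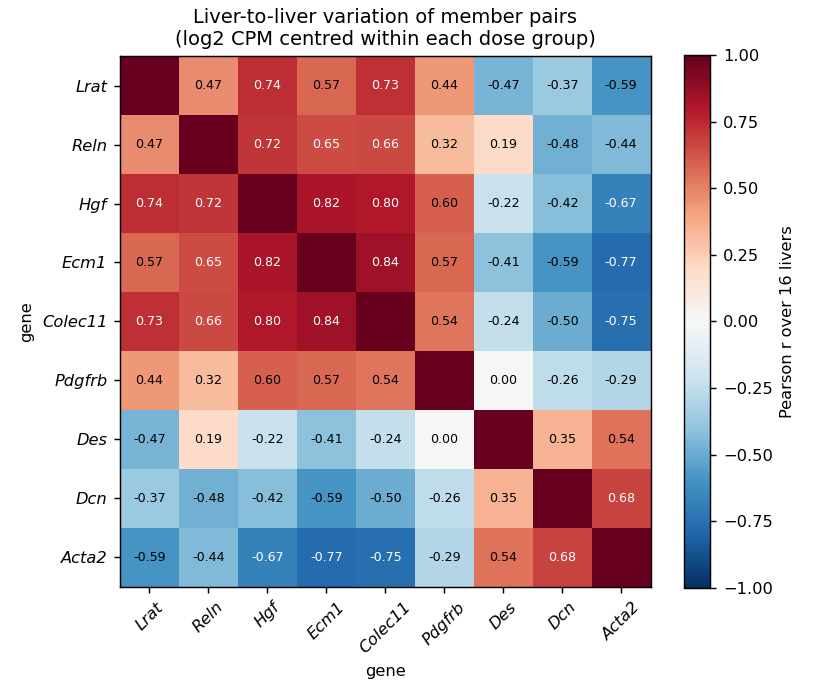
Pearson's r over 16 livers (colour scale from -1 to 1, values printed) for each pair of the 9 tested stellate cell genes, from log2 CPM centred within each dose group. The upper left block of 6 genes is positive in all 15 pairs, and Acta2 is negative with each gene of that block.

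**Figure D4:**
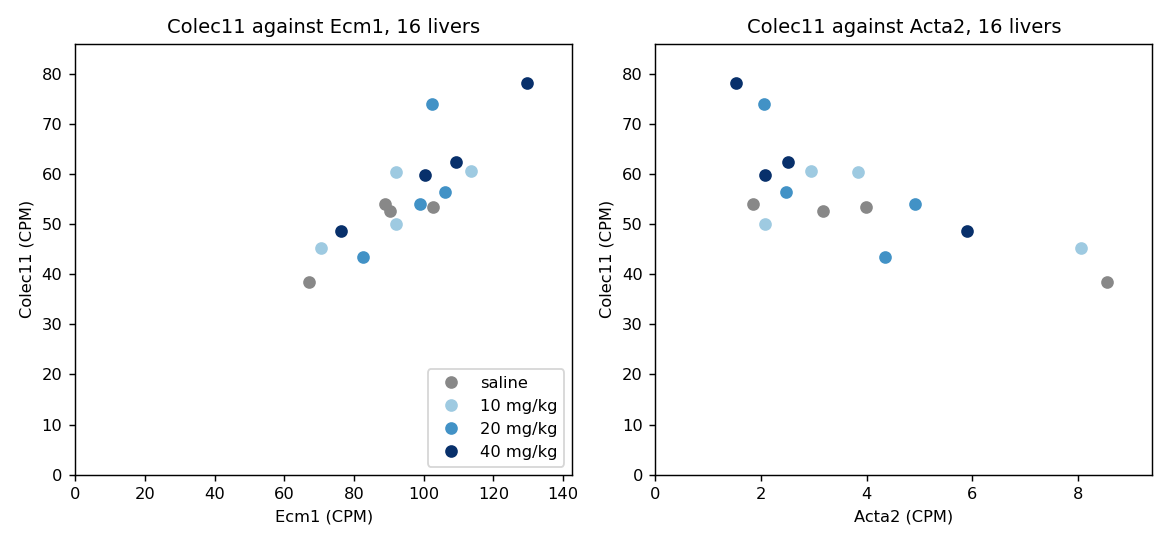
Colec11 (vertical axes, CPM) against Ecm1 (left, CPM) and against Acta2 (right, CPM), 1 point per liver, coloured by dose group. In each dose group the liver lowest in Ecm1 is the lowest in Colec11, and the livers above 5 CPM of Acta2 lie below 50 CPM of Colec11.

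Marker lists of other cell types were set beside these relations as correlations over the same 16 centred livers, given as a description. With Acta2, all 8 tested portal fibroblast genes were positive (median r 0.57), as were all 7 tested cholangiocyte markers (median r 0.59) and 11 of 12 contractile and smooth muscle genes (median r 0.58). So were 14 of 15 ligands, receptors and enzymes that work with the members (median r 0.29) and 8 of 10 hepatocyte markers (median r 0.26). Of 10 sinusoidal endothelial markers 1 was positive (median r -0.27). Further genes known from stellate cells, described below, were positive with Acta2 in 6 of 20 (median r -0.25). Kupffer cell markers were so in 3 of 10 (median r -0.22) and mesothelial markers in 2 of 10 (median r -0.16). Growth factor signalling genes were so in 11 of 20 (median r 0.12). The share of all genes positive with Acta2 or with Colec11 was not computed. With Colec11, none of the portal fibroblast genes or cholangiocyte markers was positive, with median r of -0.26 and -0.45, and 2 of 12 contractile genes were, with a median of -0.45. The summed cholangiocyte markers were 58.9 CPM in saline liver 4 and 15.8 to 17.1 CPM in the other saline livers, and 38.4 CPM in liver 2 at 40 mg/kg against 18.9 to 21.0 CPM in the other livers of that group. These 2 livers were also the highest of their groups in Acta2 and Dcn and the lowest in Ecm1 and Colec11. Over the other 14 livers, a comparison chosen after the values were seen, the median r of the cholangiocyte markers was 0.09 with Acta2 and 0.08 with Colec11, and that of the portal fibroblast genes was 0.44 with Acta2 and -0.01 with Colec11. That of the contractile and smooth muscle genes was 0.48 with Acta2 and -0.13 with Colec11. For the ligands, receptors and enzymes the median r with Acta2 was 0.28, for hepatocyte markers 0.32 and for the further stellate cell genes -0.13. Over these 14 livers r was -0.573 for Acta2 with Colec11, -0.549 for Acta2 with Ecm1 and 0.739 for Ecm1 with Colec11. All 15 pairs of the set of 6 stayed positive, with a median of 0.585, and the median between the sets was -0.205. The 2 livers left out were extreme in cholangiocyte markers, Acta2 and Colec11 alike. Leaving out such livers tends to weaken r whatever the reason, so these values cannot tell where the relation came from. What share of it came from portal tissue was not tested. Over all 16 livers, sinusoidal endothelial markers were positive with Colec11 in 8 of 10 and Kupffer cell markers in 6 of 10, with median r of 0.38 and 0.11. Over the 14 livers these were 9 of 10 and 3 of 10, with median r of 0.49 and -0.13.

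A further 20 genes known from stellate cells were all tested. None passed at 40 mg/kg against saline, where 15 of 20 were positive with a median log2 change of 0.30, and 4 reached an unadjusted p under 0.05, a share near that of all genes (2063 of 12732). For the trend 1 rose and 1 fell, beside 1.28% higher and 1.63% lower of all genes tested. Prelp, a leucine-rich matrix proteoglycan, had 46.2, 32.0, 43.7 and 34.0 CPM at 40 mg/kg, against 23.0, 30.9, 27.6 and 22.1 CPM in the saline livers, without overlap. Its trend was 0.58 (SE 0.147, adjusted p 0.0421), and the call was lost in 9 of 16 removals of 1 library, without the filter on low counts and among the 3 xylazine doses alone. Abcc9, the sulfonylurea receptor subunit of a potassium channel found in pericytes and muscle, had 24.0, 12.7, 12.3 and 13.1 CPM at 40 mg/kg, against 31.3, 31.6, 37.3 and 28.0 CPM in the saline livers, also without overlap. Its trend was -1.03 (SE 0.264, adjusted p 0.0476), and the call was lost in 11 of 16 removals and in 4 of 10 other settings (adjusted p up to 0.466), the same 2 and total count scaling among them. Over the 16 centred livers, 18 of the 20 genes were positive with Pdgfrb and 16 with Colec11, with a median r of 0.40 for each. Hepatocyte markers were positive with Pdgfrb in 9 of 10 (median r 0.21) and Kupffer cell markers in 7 of 10 (median r 0.04). Sinusoidal endothelial markers were so in 1 of 10 (median r -0.12), portal fibroblast genes in 1 of 8 (-0.20) and cholangiocyte markers in 2 of 7 (-0.15). Contractile and smooth muscle genes were positive with Pdgfrb in 4 of 12 (-0.094). The ligands, receptors and enzymes were so in 6 of 15 (-0.069), and the growth factor signalling genes in 8 of 20 (-0.05). The share of all genes positive with Pdgfrb was not computed.

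Colec10, the partner chain with which Colec11 forms its circulating complex, belongs to the same list of further stellate cell genes. It was looked up after its values were seen. It had 55.0, 38.5, 43.8 and 50.4 CPM at 40 mg/kg, against 30.8, 39.0, 31.0 and 23.2 CPM in the saline livers. The lowest liver at 40 mg/kg was just below the highest saline liver. The log2 change was 0.60 (SE 0.165, adjusted p 0.0843), with r = 0.758 with Colec11 as a description.

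Of 12 tested contractile and smooth muscle genes, 1 fell and none rose at 40 mg/kg, and the same count held for the trend. Of all genes tested, 0.636% fell and 0.471% rose at 40 mg/kg, and 1.63% fell and 1.28% rose for the trend. Mylk, the kinase that phosphorylates myosin light chain, had 58.3, 67.7, 63.2 and 64.3 CPM at 40 mg/kg, against 81.1, 83.2, 73.9 and 86.0 CPM in the saline livers, without overlap. Its log2 change was -0.35 (SE 0.0772, adjusted p 0.0416), lost in 9 of 16 removals of 1 library, in limma on log2 TPM with either pseudocount and in a fit of the 2 groups alone. Its trend was -0.38 (SE 0.079, adjusted p 0.0194), which passed in all 16 removals and was lost among the 3 xylazine doses alone (adjusted p 0.195). The other 11 gave no call. Smtn, smoothelin, a marker of contractile muscle, had a log2 change at 40 mg/kg of 0.41 (SE 0.128, adjusted p 0.116). None of 8 tested portal fibroblast genes passed. Dpt, dermatopontin, had a log2 change at 40 mg/kg of 0.48 (SE 0.220, adjusted p 0.293), and Entpd2, an ecto-ATPase of portal fibroblasts, had -0.34 (SE 0.256, adjusted p 0.549).

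Among ligands, receptors and enzymes that work with the members, none of 15 tested genes passed in any comparison. Met, the receptor for Hgf, had a log2 change of -0.33 at 40 mg/kg (SE 0.117, adjusted p 0.171). Dgat1, which can also esterify retinol, had 0.34 (SE 0.101, adjusted p 0.102). Of 20 genes of transforming growth factor beta and platelet-derived growth factor signalling, none passed either. Pdgfc, a ligand mainly for the alpha receptor, had a log2 change of -0.61 (SE 0.198, adjusted p 0.135), and Tgfbr1, a receptor for transforming growth factor beta, had -0.36 (SE 0.160, adjusted p 0.280).

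Markers of neighbouring cell types were summed per liver. Summed mesothelial markers ranged from 3.86 to 32.3 CPM in saline livers, from 16.3 to 51.9 CPM after 10 mg/kg, from 36.9 to 52.5 CPM after 20 mg/kg and from 23.0 to 55.3 CPM after 40 mg/kg. At 40 mg/kg 10 of 10 had a positive log2 change (median 1.0) and none was called, and 2 of the 10 were at 0 in 1 saline liver. Gpm6a of this list had a log2 change of 0.91 (SE 0.499) and Muc16 of 1.65 (SE 0.972). Mesothelial markers had a median r of 0.0023 with Pdgfrb over centred livers, 5 of 10 being positive. Sinusoidal endothelial markers summed to 173 to 281 CPM at 40 mg/kg and 144 to 265 CPM in saline livers, and Kupffer cell markers to 403 to 546 CPM at 40 mg/kg and 317 to 613 CPM in saline livers. Stab2 (0.37, SE 0.211) and Lyve1 (0.38, SE 0.330) of the endothelial list, Cd163 (0.11, SE 0.138) and C1qc (0.18, SE 0.247) of the Kupffer list, and Tspan8 (-0.63, SE 0.539) and Epcam (0.21, SE 0.199) of the cholangiocyte list gave no call at 40 mg/kg in log2 change. Of 10 hepatocyte markers 1 fell with dose, beside 1.63% of all genes tested. It was Cps1, the first enzyme of the urea cycle, with a trend of -0.43 (adjusted p 0.0451). The call was lost in 13 of 16 removals and in 6 of 10 other settings (adjusted p up to 0.330), total count scaling among them. Serpina1, the antitrypsin gene, gave no call, with a log2 change of -0.36 (SE 0.118) at 40 mg/kg. Their part in the rise of Pdgfrb was not tested.

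The mean of the 9 centred members was compared with every other gene of at least 5 CPM on average, 8969 in all, over the 16 livers. The 5 genes with the highest r were Bcl2l11 (0.81), Slc27a2 (0.80), Ogn (0.79), Cyp2d3 (0.79) and Bsg (0.77). Bcl2l11 encodes a promoter of cell death, Slc27a2 a fatty acid transporter with ligase activity, Ogn a small matrix proteoglycan and Bsg a membrane glycoprotein. Cyp2d3 has close relatives in its gene family, and how reads were divided among them is uncertain. Under total count scaling r was 0.83 for Bcl2l11, 0.73 for Slc27a2, 0.69 for Ogn, 0.64 for Cyp2d3 and 0.55 for Bsg, so the values depend on the scaling. The mean joins members of both sets that varied against each other. These values are the top of a ranking and carry no test. None of the 5 passed at 40 mg/kg against saline.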

How the data were processed

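Messenger RNA was sequenced in 16 libraries from livers of male rats, in 4 dose groups. The authors deposited expected counts, which are estimated counts of reads per gene without normalization, and TPM, scaled for transcript length and library size. Between 92.2% and 93.0% of the expected counts were whole. The tools named, per the submitters' processing notes, are RSEM, Bowtie2 and DESeq2, with the rat build mRatBN7.2. Versions, filters and strandedness are not given in the sources used here, so reads of overlapping or antisense genes may not be separable. A further 48 deposited columns (FPKM, normalized read counts and group averages) were not used.

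Expected counts were rounded to whole numbers, and 12732 of 17544 genes passed edgeR's filterByExpr (minimum count 10, minimum total 15). CPM and tests came from edgeR 4.0.16 (R 4.3.3) with TMM factors of 0.924 to 1.10 and robust quasi-likelihood fits over all 16 libraries, with 1 term per group or with dose as a number for the trend. SEs were derived from each log2 fold change and its F statistic. Tests were two-sided, with Benjamini-Hochberg adjustment over the 12732 genes and a threshold of 0.05. For correlations, log2 CPM (prior count 2) was centred within dose groups. Alternatives were DESeq2 1.42.0, limma 3.58.1 on log2 TPM with 1 or 0.1 added, other scalings and filters, a replicate block, a fit of the compared groups alone, dose as its rank, the 3 xylazine doses alone, and leaving out each library. The fit was tested on simulated counts.

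The members and the lists were chosen with earlier results of these data known. All members are named, and from each other list up to 4 genes that passed, or the smallest p at 40 mg/kg until 2 were named. Colec10 was named outside this rule. Motifs were chosen after the sequences were seen. Replicates are the 4 livers the labels give per group. The labels do not name the animal of each library, and p-values measure the spread between these libraries. Of the gene numbers, 17324 were found in the RefSeq table. No 2 libraries of a group agreed within sampling noise.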

Additional observations from a re-analysis of the deposited data

Results flagged for a closer look

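Of 40 combinations of a member and a dose group, 3 held 1 liver whose distance from the other 3 was large against the range of the group. Chance marks about 1 in 20 such groups. Reln in the second liver at 40 mg/kg was at 23.1 CPM, with the other 3 at 30.9 to 31.4 CPM. Colec11 in the fourth saline liver was at 38.4 CPM, with the other 3 at 52.7 to 53.9 CPM. Hgf in the third liver at 20 mg/kg was at 16.3 CPM, with the other 3 at 26.2 to 27.0 CPM. In each case the liver that stood apart was the lowest of its group.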

How the results depend on the processing

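Each of the 18 member results (9 genes, at 40 mg/kg against saline and for the trend) was recomputed under up to 26 settings, giving 455 values, of which 416 had the same direction and call. Of the rest, 31 changed sign, 6 lost a call and 2 gained one. Members called at 40 mg/kg numbered 0, against 1 by DESeq2 and 0 to 1 over removals of 1 library. For the trend the number was 1, against 0 among the 3 xylazine doses alone and 0 to 1 over removals. The cause was not tested. Dcn changed sign at 40 mg/kg under total count scaling (0.021) and limma on log2 TPM with 1 (0.14) or 0.1 added (0.19). Its trend did so in the same settings (0.082, 0.14 and 0.18), with a replicate block (0.011) and among the 3 doses (0.47). The Hgf trend did so under total count scaling (0.055) and limma (0.063 and 0.074), and the Lrat trend among the 3 doses (-0.0018). Over removals, Dcn ranged from -0.54 to 0.55 at 40 mg/kg and from -0.54 to 0.49 for the trend, and Hgf from -0.12 to 0.13 and from -0.15 to 0.092. Of the 36 member pairs 20 were positive, 19 under total count scaling, 22 without the 2 farthest livers and 19 without the 2 livers highest in cholangiocyte markers, 3 settings chosen after seeing the data.

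Over all genes at 40 mg/kg, 141 were called, 523 by DESeq2 and 27 to 198 over removals. For the trend 371 were called, 752 by DESeq2, 14 among the 3 doses and 127 to 405 over removals. For any dose, 46 were called, 445 by DESeq2 and 6 to 89 over removals. DESeq2 called 1 gene at 10 mg/kg, 54 at 20 mg/kg, 35 between 20 and 10 mg/kg and 4 between 40 and 20 mg/kg, where the quasi-likelihood test called 0. Total count scaling shifted the median of all genes by 0.06 at 40 mg/kg and turned the split of 60 higher and 81 lower into 91 and 50, and that of the trend, 163 and 208, into 276 and 112. Same-numbered livers did not pair: over 24 such pairs r lay between -0.10 and 0.279 and 5 of 16 livers correlated best with their own number. With a replicate block, 25 genes were called for any dose against 46, and the Abcc9 trend lost its call (adjusted p 0.0568). The filter of 5 CPM in 4 libraries left Acta2 and Des untested. Low counts limit Ngfr, Des and Acta2, and spread limits Dcn.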
